A study of Arabidopsis thaliana with 64 samples.

Results

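Dark-inducible (DIN) and sugar starvation genes are those whose transcripts build up when Arabidopsis thaliana is short of sugar, as at the end of a long night. The set followed here held 10 genes, chosen by their locus in the TAIR10 gene list: DIN1 (AT4G35770), DIN2 (AT3G60140), DIN3 (AT3G06850), DIN4 (AT3G13450), DIN6 (AT3G47340, also ASN1), DIN9 (AT1G67070), DIN10 (AT5G20250), DIN11 (AT3G49620), BGAL4 (AT5G56870) and BCAT2 (AT1G10070). All 10 were found among the 32833 loci counted, and all 10 passed the filter on low counts, which left 19587 loci for testing. Membership rests on gene name and locus, but the genes were chosen with earlier results of these data known.

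When carbohydrate runs out, plant cells switch from building to breaking down. The kinase SnRK1, together with transcription factors of the bZIP C and S1 groups, turns on genes that release sugars from glycosides and cell walls, break down branched-chain amino acids for energy and store the freed nitrogen in asparagine. Sugar represses the same genes, so their transcripts are widely used as a readout of a low sugar state. ELF3 and ELF4 belong to the evening complex, a repressor of growth genes at night that responds to ambient temperature.

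RNA came from seedlings 10 days old, grown on agar plates in short days (8 h light, 16 h dark). Plates stood at 12, 22 or 27 °C after germination at 22 °C, per the labels' protocols. The 38 libraries covered 16 lines, with 3 libraries at 12 °C, 15 at 22 °C and 20 at 27 °C, and all labels gave Col-0 as cultivar. The lines included Col-0 and the mutants elf3-1 and elf4-2. Overexpression lines were ELF3-ox and ELF4-ox, and each had also been crossed to a mutant, giving elf4-2 X ELF3-ox and, with the other pair, elf3-1 X ELF4-ox. Further lines carried the ELF3 of other species (BdELF3-ox, StELF3-ox and ELF3pro::BdELF3) or an ELF3 transgene under the ELF3 promoter, named by polyglutamine length: ELF3pro::ELF3-Q0 #2 and #15, ELF3pro::ELF3-Q7 #6 and #17, and ELF3pro::ELF3-Q21 #7 and #23. At 12 °C only ELF3-ox, BdELF3-ox and StELF3-ox were sampled, and 14 lines were sampled at both 22 and 27 °C.

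Each library came from a pool of seedlings, so the replicate was a pool. Of the 33 combinations of line and temperature, 29 had 1 library, 3 had 2 and 1 had 3. Nothing in the labels says that libraries of 1 combination came from separate cultures, so p-values measure only the spread between these samples, which may be technical. The hour of the day at which RNA seedlings were harvested was not given in the sources used here, and for genes that follow the light and dark cycle a difference in hour and a difference in temperature or line cannot be told apart. The labels do not say whether the transgenic lines other than the named crosses still had a working ELF3 of their own.

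Total counts in genes ran from 4381010 to 25649275 per library, with a median of 12076203. Sample titles opened with 1 of 4 numbers (177, 178, 181 or 184), whose meaning the labels do not give. All 3 libraries at 12 °C and 4 at 27 °C had the prefix 184, and none at 22 °C had it. Of 8 root markers, 7 were tested, and 2 libraries at 27 °C were low in them: their summed level, in counts scaled to the library total (CPM), was 113 CPM in BdELF3-ox 27C replicate 2 and 124 CPM in ELF3pro::BdELF3, against 1248 to 3011 CPM in the other 18 libraries at 27 °C. The root hair genes COBL9 and EXPA18 had 0 reads in both. Not every marker was low: SHR had 243 reads in BdELF3-ox 27C replicate 2, against a lowest of 181 reads in the other warm libraries. ELF3pro::BdELF3, with the lowest total count, had 103 SHR reads. NRT2.1 had 1 read in both, but as few as 0 reads in the other warm libraries. ELF4 lay between 32.0 and 38.1 CPM in the elf4-2 libraries and between 59.8 and 67.5 CPM in Col-0, while ELF3 overlapped between elf3-1 (17.5 to 26.7 CPM) and Col-0 (17.2 to 29.9 CPM). Reads of this kind mark the 3' end of a transcript, so a mutation that leaves that end in place, or a transgene with another 3' end, is not checked by them.

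Most of the starvation genes were higher in the warm. With line and title prefix in the model, 8 of the 10 genes were called at 27 °C against 22 °C, 7 of them higher and DIN11 lower (edgeR's quasi-likelihood test, Benjamini-Hochberg adjusted p under 0.05). Over all tested loci 34.3% were called, 17.7% higher and 16.7% lower. The median log2 change was 0.73 over the 10 genes and 0.01 over all tested loci. DIN2 changed most, by 3.75-fold. DIN4 and DIN9 did not pass.

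**Figure D1:**
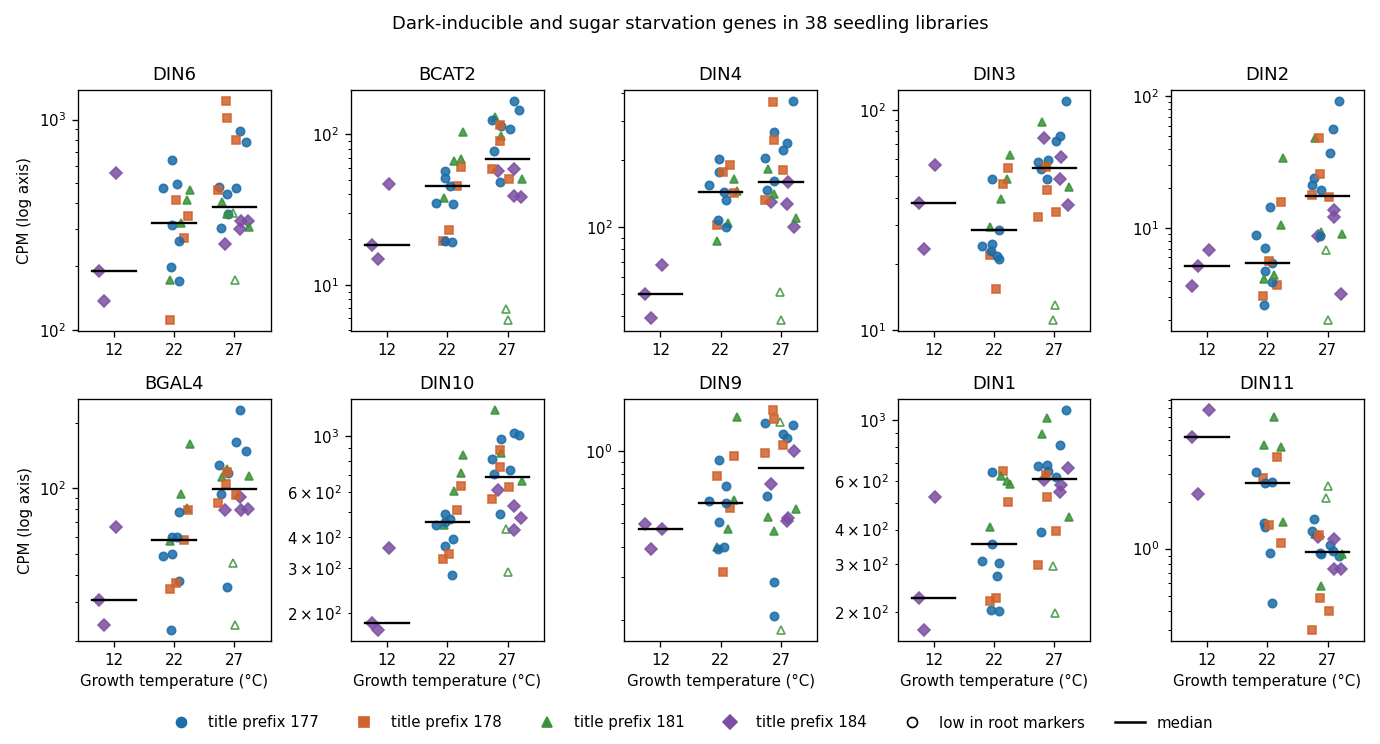
Level of each gene (CPM, log axis) in every library at 12, 22 and 27 °C, with a black line at the median of each temperature. Colour and shape give the title prefix, and open symbols are the 2 libraries low in root markers, which between them hold the lowest level at 27 °C for every gene but DIN11. The ranges at 22 and 27 °C overlap for every gene.

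The genes of nitrogen storage and branched-chain amino acid breakdown come first. DIN6 encodes asparagine synthetase, which moves nitrogen into asparagine. Its level ran from 111 to 642 CPM at 22 °C with a median of 321 CPM, and from 173 to 1230 CPM at 27 °C with a median of 382 CPM. The highest libraries at 27 °C were ELF3pro::ELF3-Q21 #23, ELF3pro::ELF3-Q21 #7 replicate 1 and elf3-1, and 5 of the 20 warm libraries lay above all 15 at 22 °C. DIN6 rose at 27 °C by 0.77 ± 0.21 on the log2 scale (± SE; adjusted p = 0.0066). BCAT2, a branched-chain aminotransferase that takes the first step of leucine, isoleucine and valine breakdown, ranged from 19.3 to 103 CPM at 22 °C (median 45.0 CPM). At 27 °C it ranged from 5.79 to 167 CPM (median 68.5 CPM), and 7 warm libraries lay above all 22 °C libraries. The 2 lowest warm values, 5.79 and 6.87 CPM, were the libraries low in root markers. BCAT2 rose by 1.08 ± 0.29 (adjusted p = 0.00632).

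DIN3 and DIN4 encode parts of the branched-chain α-keto acid dehydrogenase complex, which acts after the aminotransferase: DIN3 the acyltransferase core and DIN4 a β subunit of the decarboxylase. DIN3 ran from 15.4 to 62.2 CPM at 22 °C (median 28.5 CPM) and from 11.1 to 110 CPM at 27 °C (median 54.4 CPM). Of the 20 warm libraries, 18 lay above the 22 °C median, and the other 2 were those low in root markers. DIN3 rose by 0.76 ± 0.19 (adjusted p = 0.00334). DIN4 ran from 87.1 to 203 CPM at 22 °C (median 144 CPM) and from 38.2 to 371 CPM at 27 °C (median 161 CPM), with 12 of 20 warm libraries above the 22 °C median. Its log2 difference of 0.44 ± 0.18 did not pass (adjusted p = 0.0601). Without BdELF3-ox 27C replicate 2 it did, at 0.53 ± 0.13 (adjusted p = 0.00278), and DESeq2 also called it on all 38 libraries (adjusted p = 0.0415).

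The genes of carbohydrate release and conversion rose except for DIN9. DIN2 encodes a β-glucosidase, an enzyme that frees glucose from glycosides. It ran from 2.63 to 34.2 CPM at 22 °C (median 5.47 CPM) and from 1.99 to 92.8 CPM at 27 °C (median 17.5 CPM). The highest value at 22 °C was elf3-1, and the 5 warm libraries above it were elf3-1 X ELF4-ox, elf3-1, Col-0 replicate 1, ELF3pro::ELF3-Q21 #23 and elf4-2 X ELF3-ox. DIN2 rose by 1.91 ± 0.28 (adjusted p = 3.3e-05). BGAL4 encodes a β-galactosidase, which trims galactose from cell wall and other glycans. Its level was 22.3 to 160 CPM at 22 °C (median 57.6 CPM) and 23.5 to 228 CPM at 27 °C (median 99.6 CPM). BGAL4 rose by 0.91 ± 0.23 (adjusted p = 0.00375), with 17 of 20 warm libraries above the 22 °C median.

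DIN10 belongs to the raffinose synthase family. It ran from 281 to 843 CPM at 22 °C (median 455 CPM) and from 290 to 1267 CPM at 27 °C (median 687 CPM), the highest being Col-0 replicate 1. DIN10 rose by 0.69 ± 0.15 (adjusted p = 0.0010). DIN9 encodes a phosphomannose isomerase, which links mannose and fructose phosphates. It was barely detected: 3 to 18 reads per library at 22 °C and 1 to 20 reads at 27 °C, or medians of 0.608 and 0.851 CPM. Its log2 difference was 0.44 ± 0.24 (adjusted p = 0.174).

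DIN1, also called SEN1, is a marker of darkness and senescence with a rhodanese-like domain. It ran from 203 to 655 CPM at 22 °C (median 353 CPM) and from 199 to 1085 CPM at 27 °C (median 612 CPM), and 17 of 20 warm libraries lay above the 22 °C median. DIN1 rose by 0.62 ± 0.21 (adjusted p = 0.0250). DIN11, a 2-oxoglutarate-dependent dioxygenase, went the other way. Its level was 0.446 to 7.01 CPM at 22 °C (median 2.63 CPM) and 0.300 to 2.53 CPM at 27 °C (median 0.949 CPM), and none of the 20 warm libraries lay above the 22 °C median. DIN11 fell by 1.33 ± 0.27 on the log2 scale (adjusted p = 0.000712), on counts of 3 to 25 reads per warm library and 5 to 65 reads at 22 °C.

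Although 8 genes were called, no gene separated the temperatures: libraries at 22 and 27 °C overlapped for all 10, as they did for all but 0.199% of tested loci. BdELF3-ox 27C replicate 2, low in root markers, was the lowest of the 20 warm libraries for 8 of the 10 genes, against 14.8% of all tested loci, and the highest for DIN11. Of the senescence markers, SAG21 was also low there, at 189 CPM, and at 327 CPM in ELF3pro::BdELF3, against 2154 to 7965 CPM in the other 18 warm libraries. The other 9 senescence markers summed to 165 and 228 CPM in the same 2 libraries, within the 148 to 305 CPM of the rest. Whether the low root markers and the low starvation genes are linked was not tested. Without both libraries 9 genes were called, DIN4 being added. In bulk seedlings, fewer cells of a type and less RNA per cell cannot be told apart.

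Green leaf markers moved with temperature too. The summed level of the 5 markers was 13606 to 29421 CPM at 22 °C (median 20790 CPM) and 9475 to 23532 CPM at 27 °C (median 14167 CPM). Of the 5, 3 were called lower, beside 16.7% of all tested loci. Their part in the changes of the starvation genes was not tested.

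**Figure D2:**
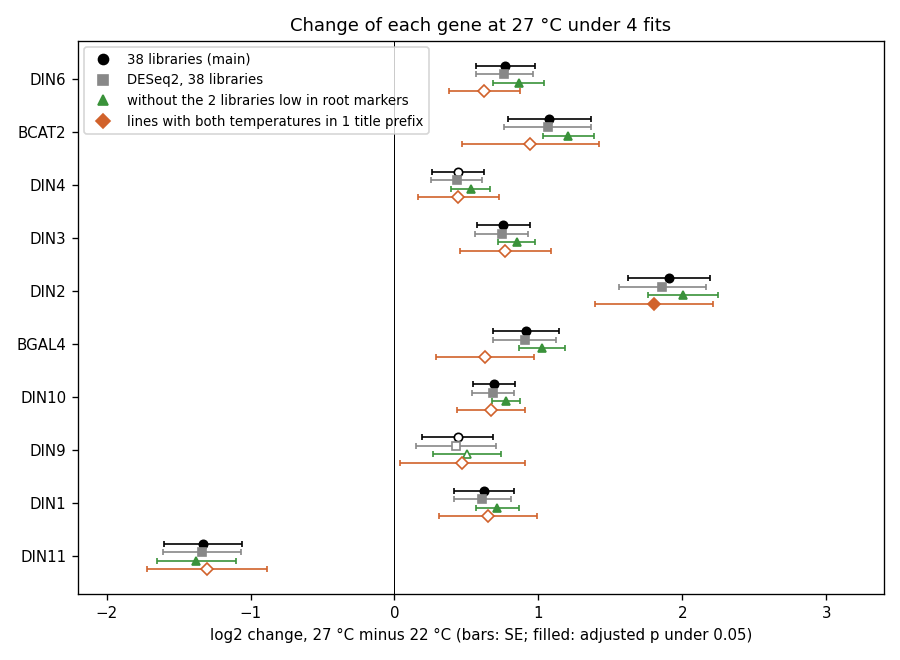
log2 change of each gene from 22 to 27 °C with its SE under 4 fits, filled where the adjusted p was under 0.05. The estimates shift little between fits, from 1.80 to 2.00 for DIN2, while the fit on lines with both temperatures in 1 title prefix has wider errors and calls DIN2 only.

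The title prefixes bear on the temperature comparison, since only 7 of the 14 lines (15 libraries) had 22 and 27 °C libraries under 1 prefix. In these 7 lines the signs of all 10 genes were as in the full set, but 1 of 10 was called, DIN2 at 1.80 on the log2 scale. DIN10 stood at 0.67 (adjusted p = 0.0997), DIN6 at 0.62 (adjusted p = 0.139), BCAT2 at 0.95 (adjusted p = 0.234) and DIN11 at −1.30 (adjusted p = 0.0768). Those 15 libraries include BdELF3-ox 27C replicate 2. A fit without it, which was not among those planned, called 9 of 10 genes in the same 7 lines, all except DIN9. DIN10 was then at 0.81 ± 0.12 (adjusted p = 0.00112), BCAT2 at 1.17 ± 0.20 (adjusted p = 0.00242) and DIN11 at −1.38 ± 0.41 (adjusted p = 0.0349). The single library, low in root markers, thus decided the calls within prefixes. The shares of all tested loci called in these fits are not given here. The change in the count can therefore not be read as particular to these genes.

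In 4 lines a warm library with prefix 184 had a counterpart of the same line under another prefix, leaving out the one low in root markers. DIN4, DIN6, DIN10 and BCAT2 were higher in the counterpart in 4 of 4 lines. The share of all tested loci with that pattern is not given here, so it cannot be read as particular to these genes. DIN6 in ELF3pro::ELF3-Q21 #7 was 1016 CPM under prefix 178 and 330 CPM under prefix 184, a ratio of 3.08. DIN2 in Col-0 at 27 °C was 48.5 CPM under prefix 181 and 8.66 CPM under prefix 184, a ratio of 5.60. That gap between libraries of 1 line at 1 temperature exceeds the fitted temperature change of DIN2. In a fit without the 7 libraries of prefix 184, which was not planned either, 8 genes were called at 27 °C, 7 higher and 1 lower.

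**Figure D3:**
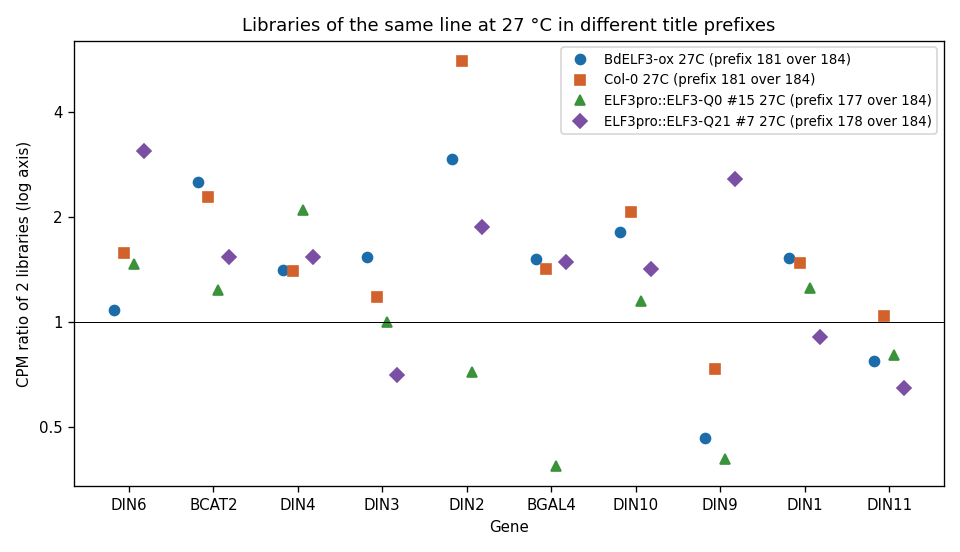
Ratio of CPM (log axis) between libraries of the same line at 27 °C, another title prefix over prefix 184, for each gene. All 4 points lie above 1 for DIN6, BCAT2, DIN4 and DIN10, and they run from 0.721 to 5.60 for DIN2.

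Line by line, the warm response of the starvation genes was broad in direction and uneven in size. Among the 14 lines with both temperatures, the mean at 27 °C was above that at 22 °C in 14 lines for DIN2, a pattern shown by 4.11% of tested loci. It was above in 13 lines for DIN1, DIN3, DIN10, BGAL4 and BCAT2, where at least 13 lines held for 9.16% of tested loci. DIN6 was higher in 11 lines, and DIN4 and DIN9 in 10. DIN11 was higher in 1 line, elf4-2 X ELF3-ox, whose 22 °C library had 5 DIN11 reads. At most 1 such line was seen for 8% of tested loci.

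The median log2 difference over the 10 genes was largest in ELF3pro::ELF3-Q21 #23 (1.54), ELF3pro::ELF3-Q21 #7 (1.36) and elf4-2 (1.20). It was 1.06 in elf3-1 X ELF4-ox, 1.05 in elf4-2 X ELF3-ox, 0.49 in elf3-1 and 0.28 in Col-0. BdELF3-ox was lowest at −0.16, with 3 of 10 genes higher at 27 °C, but its warm mean includes the library low in root markers. Its replicate 1 alone, under the prefix of the 22 °C library, had 122 CPM of BGAL4 against 94.1 CPM at 22 °C, and 97.1 CPM of BCAT2 against 66.4 CPM. Replicate 3, with prefix 184 and not low in root markers, lay below the 22 °C library, at 80.5 CPM of BGAL4 and 38.4 CPM of BCAT2. Most of these differences rest on 1 library per temperature, so their order has no replicate check.

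**Figure D4:**
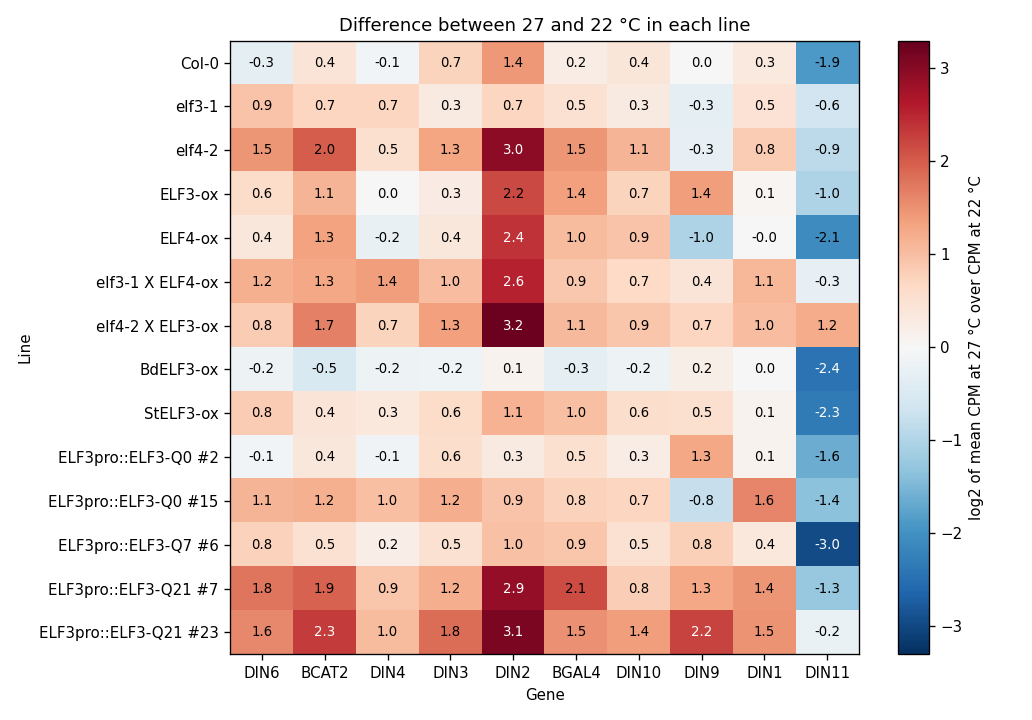
log2 of the mean CPM at 27 °C over that at 22 °C for each of 14 lines and 10 genes, red where higher and blue where lower at 27 °C. DIN2 is red in all 14 lines and DIN11 blue in 13, and the BdELF3-ox row is the palest apart from DIN11.

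Cold at 12 °C left none of the 10 genes called against 22 °C, where 6.09% of tested loci were called. DESeq2 also called 0, and 1 gene had an unadjusted p under 0.05. That gene was DIN2, at 2.17 ± 0.74 on the log2 scale (adjusted p = 0.0825). Its measured levels do not show such a gap: 3.63, 6.77 and 5.18 CPM in ELF3-ox, BdELF3-ox and StELF3-ox at 12 °C, and 4.70, 4.40 and 4.11 CPM in the same lines at 22 °C. Prefix 184 is absent at 22 °C, so the fit reaches 22 °C through the warm libraries of that prefix, and without the prefix term the DIN2 value was 0.77 ± 0.59 (adjusted p = 0.347). DIN2 passed without BdELF3-ox 27C replicate 2 (2.19, adjusted p = 0.0279). It also passed without ELF3-ox 12C, at 3.10, or without ELF3pro::ELF3-Q0 #15 27C replicate 1, at 2.39 (adjusted p = 0.0369 each). For DIN2, cold and title prefix cannot be told apart on these libraries.

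DIN4, the dehydrogenase β subunit, was the only starvation gene with all cold libraries outside the range at 22 °C. It had 50.2 CPM in ELF3-ox, 67.7 CPM in BdELF3-ox and 39.0 CPM in StELF3-ox at 12 °C, and all 3 were below all 15 libraries at 22 °C, a pattern shared by 11.7% of tested loci. In the same lines at 22 °C it had 203, 105 and 87.1 CPM. The fitted log2 difference was −0.58 ± 0.45 (adjusted p = 0.493). DIN10 was close to this, with 183, 360 and 171 CPM at 12 °C against 494, 607 and 446 CPM in those lines at 22 °C. Its log2 difference was −0.31 ± 0.37 (adjusted p = 0.684), and −0.92 ± 0.30 without the prefix term (adjusted p = 0.0254). DIN4 alone had all cold libraries below those at 22 °C, so the starvation genes did not exceed the share over all tested loci. Among warm libraries, DIN4 and DIN10 were also lower under the prefix of the cold libraries, in 4 of 4 lines. For both genes, cold and title prefix cannot be told apart on these libraries.

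The cold libraries share their prefix with warm ones, so 12 °C was also set against 27 °C, a comparison added after the data had been seen. There 2 of the 10 genes were called, beside 23.2% of tested loci, of which 10.6% were higher and 12.6% lower at 12 °C. DIN10 was lower at 12 °C (log2 −1.002 ± 0.34, adjusted p = 0.0375) and DIN11 higher by 2.23 ± 0.58 (adjusted p = 0.00769). DIN11 had 5.20, 7.72 and 2.25 CPM at 12 °C, and of the 20 warm libraries all but BdELF3-ox 27C replicate 2 lay below the lowest of these. The counts of calls hung on single libraries: none of the 10 was called without BdELF3-ox 27C replicate 3, the only line with 12 and 27 °C libraries under prefix 184, and 5 were called without BdELF3-ox 27C replicate 2.

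Loss of ELF3 was compared in 2 ways, elf3-1 against Col-0 and elf3-1 X ELF4-ox against ELF4-ox, over both temperatures. None of the 10 genes was called in either, by edgeR or by DESeq2, where 0.699% and 0.684% of tested loci were called. In each comparison 2 genes had an unadjusted p under 0.05. The median log2 difference of the 10 genes was 0.41 and 0.40, beside −0.03 and −0.02 over all tested loci.

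DIN2, the β-glucosidase gene, had the largest difference in both comparisons. At 22 °C it had 34.2 CPM in elf3-1 against 10.7 CPM in Col-0, both under prefix 181. At 27 °C the elf3-1 library had 56.1 CPM and those of Col-0 had 48.5 and 8.66 CPM. The lines overlapped over both temperatures, and the log2 difference was 1.51 ± 0.65 (adjusted p = 0.301). In the cross, the libraries compared shared a prefix at each temperature: 15.8 CPM against 3.68 CPM in ELF4-ox at 22 °C, and 92.8 CPM against 19.3 CPM at 27 °C. DIN2 was thus higher in the cross at each temperature, with a log2 difference of 2.19 ± 0.72 (adjusted p = 0.264).

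BGAL4, the β-galactosidase gene, had 160 and 228 CPM in elf3-1 at 22 and 27 °C, against 81.1 CPM in Col-0 at 22 °C and 113 and 79.4 CPM at 27 °C. Both elf3-1 libraries lay above all 3 of Col-0, as they did for 14.9% of tested loci, and the log2 difference was 1.32 ± 0.56 (adjusted p = 0.291). In the cross it was 79.8 and 148 CPM, against 57.6 and 118 CPM in ELF4-ox, a log2 difference of 0.40 ± 0.59 (adjusted p = 0.990). DIN6 also stood higher in both elf3-1 libraries, 462 and 887 CPM, than in the 3 of Col-0, at 413, 405 and 256 CPM (log2 0.59 ± 0.51, adjusted p = 0.649). DIN9 did so on 13 and 14 reads, with a log2 difference of 1.14 ± 0.61 (adjusted p = 0.419).

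Across all lines, the library with the highest level was often one carrying elf3-1, a pattern picked out after the values had been seen. At 22 °C elf3-1 was the highest of 15 libraries for 6 of the 10 genes (DIN2, DIN3, DIN9, DIN10, BGAL4 and BCAT2), against 8.97% of tested loci. At 27 °C elf3-1 or elf3-1 X ELF4-ox was the highest of 20 for 6 of 10 (DIN1, DIN2, DIN3, DIN4, BGAL4 and BCAT2), against 7.74%. Most of the 10 genes vary together between libraries, so they are not independent observations. The response to 27 °C did not differ detectably between the 2 lines with elf3-1 and the rest: none of the 10 interaction terms was called by edgeR or DESeq2, none had an unadjusted p under 0.05, and 0% of tested loci were called. For DIN2 the interaction was −0.41 ± 0.90 on the log2 scale (adjusted p = 1).

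The other line comparisons called none of the 10 genes by edgeR or DESeq2. They set elf4-2 against Col-0 (0.0817% of tested loci called), elf4-2 X ELF3-ox against ELF3-ox (0.0408%), ELF3-ox against Col-0 (0.0306%) and ELF4-ox against Col-0 (0.00511%). They also set BdELF3-ox and StELF3-ox against ELF3-ox (0% each) and the ELF3-Q21 lines against the ELF3-Q0 lines (0.0153%). An unadjusted p under 0.05 was reached once, by DIN6 in elf4-2. DIN6 had 111 CPM at 22 °C and 304 CPM at 27 °C in elf4-2, against 256 to 413 CPM in Col-0, a log2 difference of −1.36 ± 0.64 (adjusted p = 0.817). The median SE of the 10 genes ran from 0.41 in the Q21 comparison to 0.67 in that of ELF4-ox, so only large differences could have passed.

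The ELF3-Q lines differ in the length of the polyglutamine stretch of ELF3, and also in ELF3 level. ELF3 ran from 135 to 153 CPM in ELF3pro::ELF3-Q0 #2 and from 83.1 to 352 CPM in ELF3pro::ELF3-Q0 #15. It ran from 37.0 to 61.0 CPM in ELF3pro::ELF3-Q21 #7 and from 110 to 118 CPM in ELF3pro::ELF3-Q21 #23. The part of ELF3 level in the comparison was not tested. Log2 differences of the Q21 from the Q0 lines were above 0 for all 10 genes, from 0.02 for BGAL4 to 0.58 for DIN6, none called. DIN6 had 199 and 414 CPM at 22 °C in ELF3pro::ELF3-Q21 #7 and #23, and 171 and 493 CPM in ELF3pro::ELF3-Q0 #15 and #2, so the lines overlapped. At 27 °C it had 1016, 330 and 1230 CPM in the Q21 lines and 443, 303 and 465 CPM in the Q0 lines. The difference for DIN6 was 0.58 ± 0.39 (adjusted p = 1). The low Q21 value, 330 CPM, and the lowest warm Q0 value, 303 CPM, both came from libraries of prefix 184. ELF3pro::ELF3-Q7 #6 had 804 CPM at 27 °C, between the Q0 lines and the 2 high Q21 libraries.

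The wider starvation pathway was followed in lists of 82 other loci, sorted into 10 lists. Over the 10 lists, which include the root and green leaf markers, 78 loci were tested. At 27 °C 39.7% of them were called in either direction, beside 34.3% of all tested loci. Of the 78, 23 were higher and 8 lower, beside 17.7% higher and 16.7% lower over all tested loci. In branched-chain amino acid breakdown, the pathway of DIN3 and DIN4, 5 of 7 rose at 27 °C and none fell, led by AT1G21400 (1.03 ± 0.25, adjusted p = 0.00276) and MCCB (1.00 ± 0.14, adjusted p = 2.3e-05), a subunit of the carboxylase of leucine breakdown. The median log2 change of that list was 0.83. Of 8 other amino acid genes 1 rose and 2 fell, near the shares over all loci. LKR/SDH, of lysine breakdown, rose by 0.60 ± 0.20 (adjusted p = 0.0230). PRODH1, a proline dehydrogenase, fell by 0.67 (−0.67 ± 0.26, adjusted p = 0.0494), and ASN3, another asparagine synthetase gene, fell by 0.39 (−0.39 ± 0.12, adjusted p = 0.0109).

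Calls among the regulators were close to the shares over all loci, 1 higher and 1 lower of 6 SnRK1 genes and 2 higher and 1 lower of 9 bZIP factors. Of the SnRK1 genes, the β subunit gene KINB1 rose by 0.53 ± 0.10 (adjusted p = 0.000498) and the catalytic subunit gene KIN11 fell by 0.44 (−0.44 ± 0.11, adjusted p = 0.00386). KIN10, the other catalytic subunit, stood at −0.13 ± 0.14 (adjusted p = 0.498). Among the bZIP factors, bZIP1 rose by 0.86 ± 0.13 (adjusted p = 4.7e-05) and bZIP53 by 0.34 ± 0.09 (adjusted p = 0.00748). Their relative bZIP11, whose translation sucrose is known to repress, fell by 0.56 (−0.56 ± 0.12, adjusted p = 0.000906). At 12 °C bZIP11 also fell, by 1.42 (−1.42 ± 0.31, adjusted p = 0.00908), while bZIP1 was at 0.28 ± 0.34 and bZIP53 at −0.63 ± 0.24, neither called.

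The counts in the remaining lists stand beside 17.7% of all tested loci called higher and 16.7% called lower. Other genes known to be turned on by low sugar rose in 5 of 11 cases and fell in none. TPS11, of the trehalose phosphate synthase family, was at 0.86 ± 0.13 (adjusted p = 4.0e-05) and KFB20, a kelch F-box gene, at 0.83 ± 0.12 (adjusted p = 2.4e-05). Of 6 sugar-induced genes tested none was called at 27 °C by edgeR, and none had an unadjusted p under 0.05. The list is too short for that count to be read as a difference from the shares over all loci. Among senescence genes 5 of 10 rose, led by the transcription factor genes NAP (1.71 ± 0.24, adjusted p = 1.4e-05) and ORE1 (0.80 ± 0.16, adjusted p = 0.000728). Of 9 ATG8 genes, which encode the membrane anchors of autophagy, 4 rose, with ATG8B at 0.63 ± 0.11 (adjusted p = 0.000165) and ATG8C at 0.61 ± 0.10 (adjusted p = 0.000102). Of the markers, COBL9 in roots fell by 1.24 (−1.24 ± 0.29, adjusted p = 0.00229), 1 of 7 and so near the share called lower over all loci. That fit includes the 2 warm libraries low in root markers, which had 0 COBL9 reads. In green tissue LHCB1.3 fell by 0.71 (−0.71 ± 0.10, adjusted p = 1.0e-05) and RBCS1A by 0.60 (−0.60 ± 0.09, adjusted p = 4.6e-05).

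**Figure D5:**
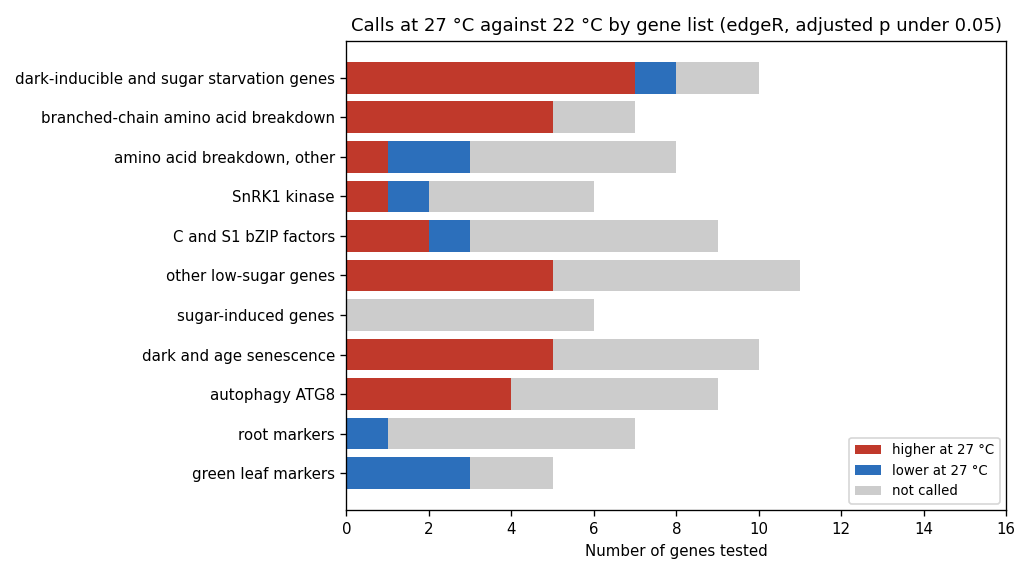
Number of tested genes in each list called higher (red), called lower (blue) or not called (grey) at 27 °C against 22 °C. The starvation genes hold 7 higher and 1 lower of 10, branched-chain amino acid breakdown 5 higher of 7, and sugar-induced genes 0 of 6. Over all tested loci 17.7% were called higher and 16.7% lower.

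At 12 °C 4 of the 78 list genes were called (5.13%), beside 6.09% of all tested loci. NAP rose by 2.07 ± 0.59 (adjusted p = 0.0398) and the light-harvesting gene LHCA1 by 1.09 ± 0.30 (adjusted p = 0.0351), and DRM1, a dormancy-associated gene, fell by 1.03 (−1.03 ± 0.22, adjusted p = 0.00881). The other call was bZIP11. No library at 22 °C had the title prefix of the cold ones, so none of the 4 calls compares temperatures within a prefix. DRM1 rose at 27 °C, by 0.43 on the log2 scale.

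Between libraries, 9 of the 10 genes correlated positively with each other, with the lowest values in pairs with DIN9. Correlations among other loci are not given here, so this cannot be read as particular to these genes. Over the 38 libraries the 36 pairs among the genes other than DIN11 had Pearson correlations of log2 CPM from 0.288 to 0.867, with a median of 0.67. Libraries of 1 line, temperature or prefix are not independent, so these are a description. After the mean of each temperature was taken out the median was 0.64. DIN11 correlated negatively with the other 9, at −0.453 to −0.200, but after the temperature means were taken out its values ran from −0.246 to 0.174 with a median of −0.14.

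Among 12870 loci with a mean of at least 5 CPM, those most like each gene over the 38 libraries were as follows. DIN10 was closest to AT1G21400 (r = 0.948) and to EMB2769 (r = 0.908). BCAT2 was closest to THA1, a threonine aldolase gene, and MYB59, a transcription factor gene (both r = 0.939). DIN1 was closest to MCCA (r = 0.897), the partner subunit of MCCB, and to KING1 (r = 0.876). DIN3 was nearest to AT2G32150 (r = 0.937) and OCT2 (r = 0.930), and DIN4 to RLP9 (r = 0.931) and STOP1 (r = 0.915). BGAL4 was nearest to AT4G37220 (r = 0.903) and then to BCAT2 (r = 0.867), the one case in which a gene's nearest loci included another of the 10. The nearest loci of DIN2 were AT1G02660 (r = 0.859) and AT5G14470 (r = 0.845), those of DIN6 AT2G30600 (r = 0.805) and AT5G24890 (r = 0.797). DIN9 and DIN11, with few reads, had their nearest loci at lower values: HSPRO2 (r = 0.762) and AT5G65380 (r = 0.757) for DIN9, AT1G54410 (r = 0.756) and BGLU42 (r = 0.741) for DIN11.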

How the data were processed

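The authors deposited raw counts of reads for each TAIR10 locus, whole numbers with no normalization. Libraries were made with a kit for 3' ends of transcripts, per the labels' protocols, and STAR and TAIR10 are named in the submitters' processing notes. The tool that counted reads was not given in the sources used here. Reads not uniquely aligned made up 2.64 to 35.1% of a library and reads in no gene or several genes 2.20 to 5.01%; both were left out of library sizes. Symbols came from a RefSeq table (TAIR10.1), matched on locus tags for all 10 loci.

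The count model was fitted with edgeR 4.0.16 in R 4.3.3: loci with at least 1 CPM in 3 libraries, TMM factors, a trended dispersion, line, temperature and title prefix as terms (17 residual degrees of freedom), and the quasi-likelihood test with Benjamini-Hochberg adjustment over 19587 loci. SEs were derived from the fold change and the F statistic. CPM values use TMM-scaled library sizes, and log2 CPM a prior count of 2. DESeq2 1.42.0, RLE factors, no filter, no prefix term and library subsets were alternatives. The fits were checked on data simulated with the same dispersion for all loci and no title prefix effects, so that check does not cover the prefixes. All 10 genes are named in each comparison, and from each other list the 2 called genes of largest change in each direction, with bZIP1, bZIP11, bZIP53, KIN10 and KIN11. The genes and lists were chosen with earlier results of these data known. The ChIP samples were not used here.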

Additional observations from a re-analysis of the deposited data

Results flagged for a closer look

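DIN6, the asparagine synthetase gene, moved in opposite directions with warmth in Col-0 and in the lines with elf3-1. In Col-0 it had 413 CPM at 22 °C and 405 and 256 CPM at 27 °C, a log2 difference of −0.32, so both warm libraries lay below the 22 °C library. The library that shared the 22 °C prefix differed by −0.03, and the rest of the gap came from the library of prefix 184. In elf3-1 it went from 462 to 887 CPM and in elf3-1 X ELF4-ox from 347 to 780 CPM. A higher DIN6 mean at 27 °C was not particular to these lines: it was seen in 11 of 14, among them ELF3pro::ELF3-Q21 #7 (1.76) and elf4-2 (1.46), while BdELF3-ox (−0.17) and ELF3pro::ELF3-Q0 #2 (−0.08) were lower as Col-0 was. The difference between Col-0 and the lines with elf3-1 was not tested as such. The interaction of both elf3-1 lines against all other lines was 0.18 ± 0.69 on the log2 scale for DIN6 (edgeR adjusted p = 1). The warm elf3-1 libraries had the title prefix 177, and those of Col-0 the prefixes 181 and 184. The part of the prefix was not tested.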

How the results depend on the processing

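At 27 against 22 °C the count of 8 called genes became 1 in lines with both temperatures in 1 title prefix. It stayed at 8 to 9 with each replicate left out, which covers only the 27 °C combinations of line and temperature with more than 1 library. No library at 22 °C was left out singly. No sign changed under any alternative. The shares of all tested loci called under the alternatives are not given here. At 12 against 22 °C the count of 0 became 1 without the prefix term (DIN10, lower) and 1 when both libraries low in root markers were dropped (DIN2, higher), and ran from 0 to 1 with a library left out. At 12 against 27 °C the count of 2 became 6 without the prefix term, 5 without those libraries and 0 to 5 with a library left out. All line comparisons and the interaction stayed at 0 called genes under every alternative run.

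Reversed log2 values all belong to genes not called. At 12 against 22 °C, BCAT2 was at −0.57 without the prefix term. With a library left out, DIN3 ran from −0.22 (without BdELF3-ox 12C) to 0.87, DIN9 from −0.66 to 0.025 (without BdELF3-ox 27C replicate 3), DIN10 from −0.84 to 0.074 and BGAL4 from −1.06 to 0.15 (both reversed without ELF3-ox 12C), and BCAT2 from −0.60 to 0.93 (below 0 without BdELF3-ox 12C or BdELF3-ox 27C replicate 3). In elf3-1 against Col-0, DIN4 was at 0.015 with DESeq2, 0.016 with RLE factors, 0.29 without the prefix term and 0.025 without both libraries low in root markers. With a library left out, DIN4 ran from −0.18 to 0.17, DIN1 from −0.10 (without Col-0 27C replicate 2) to 0.20, DIN10 from −0.059 to 0.30 and DIN11 from −1.61 to 0.13 (both reversed without elf3-1 22C). In elf3-1 X ELF4-ox against ELF4-ox, leaving out a library took DIN1 from −0.28 to 0.64 and DIN4 from −0.16 to 0.94, with both below 0 when either line's 27 °C library was left out. The cause was not tested.

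RLE factors moved the median of all loci at 27 °C from 0.01 to −0.01. Where a line keeps 1 library, it is assumed to vary like the other groups. No paired analysis was possible because the labels give no replicate numbers, and libraries were linked only through the line and title prefix terms of the fit. The planned count of ELF3 peaks near the genes, and its 3 alternatives, was not run, since gene positions of the peak lists' build were not used here. DIN9 had 1 to 20 reads per library and DIN11 3 to 114.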
